A study of Drosophila melanogaster with 24 samples.

Results

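The genes described here encode kinases, phosphatase subunits and a ubiquitin ligase subunit that act on clock proteins in Drosophila melanogaster. They are listed by name, and the rule uses no measured value: the kinase genes dco (discs overgrown, casein kinase 1), sgg (shaggy, glycogen synthase kinase 3), CkIIalpha and CkIIbeta (catalytic and regulatory subunits of casein kinase 2) and nmo (nemo, a proline-directed kinase), the protein phosphatase 2A genes mts (microtubule star, the catalytic subunit), tws (twins) and wdb (widerborst), both regulatory subunits, and slmb (supernumerary limbs, an F-box protein). All 9 are in the deposited count table, which holds 16722 usable genes, and all 9 passed the filter on low counts, which kept 11095 genes. They have 66 of the 35411 transcript models measured.

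In the fly clock, the proteins CLOCK and CYCLE switch on per and tim, and the PERIOD and TIMELESS proteins accumulate through the night, enter the nucleus and block their own transcription. Phosphorylation times this loop: the kinase encoded by dco marks PERIOD for binding by the SLMB protein and breakdown in the proteasome, casein kinase 2 and the SGG protein act on entry into the nucleus, and NEMO also phosphorylates PERIOD. Protein phosphatase 2A with TWS or WDB removes phosphate from PERIOD. These are steps on protein, and RNA levels do not measure them.

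Poly(A) RNA from heads was sequenced for w1118 flies, the wild-type control given in the labels, and for flies with the cwo5073 allele of clockwork orange (cwo), a transcriptional repressor of the clock. Both genotypes spent 3 days at 25 °C under 12 h of light and 12 h of darkness, and heads were taken at zeitgeber time (ZT, hours after lights on) 2, 6, 10, 14, 18 and 22, with 2 libraries for each genotype and time and 24 in all. The comparison asks how these transcripts differ in level and over the day between the genotypes. Nothing in the labels says whether replicates came from separate cultures, so p-values measure the spread between these libraries, which may be technical; the sources used here give neither sex nor age. In whole heads, fewer cells of a type and less RNA per cell cannot be told apart.

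The libraries held 11319605 to 19638611 counts. Gene levels are given as CPM, counts scaled to library size times a normalization factor of the library (TMM). For the cell type markers named next, CPM are scaled to library size alone. The gene cwo itself averaged 93.5 ± 39.6 CPM (SD, n = 12) in wild type and 523 ± 247 CPM in the mutant. All 12 mutant libraries lay above all 12 wild-type libraries. Markers of photoreceptors, neurons, glia, fat body and muscle were detected in every library, and the germ-line markers osk, nos, vas, Mst98Ca, Mst84Da and bam stayed under 1 CPM. In the mutant libraries of replicate number 1, the fat body genes Yp1, Yp2 and Yp3 had medians of 18998, 11952 and 17484 CPM, against 6105, 2509 and 3880 CPM in those of number 2 and 4639, 2079 and 3999 CPM in wild type. Lsp2, the other gene of that list, had medians of 255, 16.8 and 1.68 CPM in the same order. Replicate 2 of wild type at ZT2 was unlike the others: it correlated with the rest at a median Spearman rho of 0.893, and the other 23 did so at 0.953 to 0.982. Its normalization factor was 0.758, against 0.921 to 1.08 in the other 23, which raises its CPM. A score of long against short transcripts (the median log2 deviation of abundant genes from 3513 nt up minus that of genes up to 1322.5 nt) was -1.16 in that library and -1.04 in wild-type ZT22 replicate 1, and lay between -0.46 and 0.58 in the other 22. Both libraries are named below wherever a result rests on them.

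All 9 genes were expressed in heads at every time. Compared per length, as transcript FPKM (fragments scaled to transcript length and depth) summed over a gene's models, mts was the most abundant in wild type at 171 ± 16.4 FPKM (SD, n = 12), followed by sgg at 115 ± 18.4 and CkIIalpha at 89.0 ± 16.3. CkIIbeta stood at 56.1 ± 6.13, wdb at 52.9 ± 5.43, dco at 37.2 ± 7.05 and tws at 34.6 ± 8.67 FPKM. The lowest were nmo at 27.0 ± 6.35 and slmb at 26.6 ± 4.95 FPKM. In this order the ranges over libraries overlapped in 8 of 8 neighbouring pairs, and the means of neighbours differed by more than the larger SD in 4 of them (mts and sgg, sgg and CkIIalpha, CkIIalpha and CkIIbeta, wdb and dco). The catalytic subunit of casein kinase 2 thus had a higher summed level than the regulatory one, and the catalytic subunit of the phosphatase a higher one than either regulatory subunit. In the mutant the extremes were mts at 159.8 ± 9.63 FPKM and nmo at 25.0 ± 3.84 FPKM, and the other 7 genes lay in between.

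**Figure D1:**
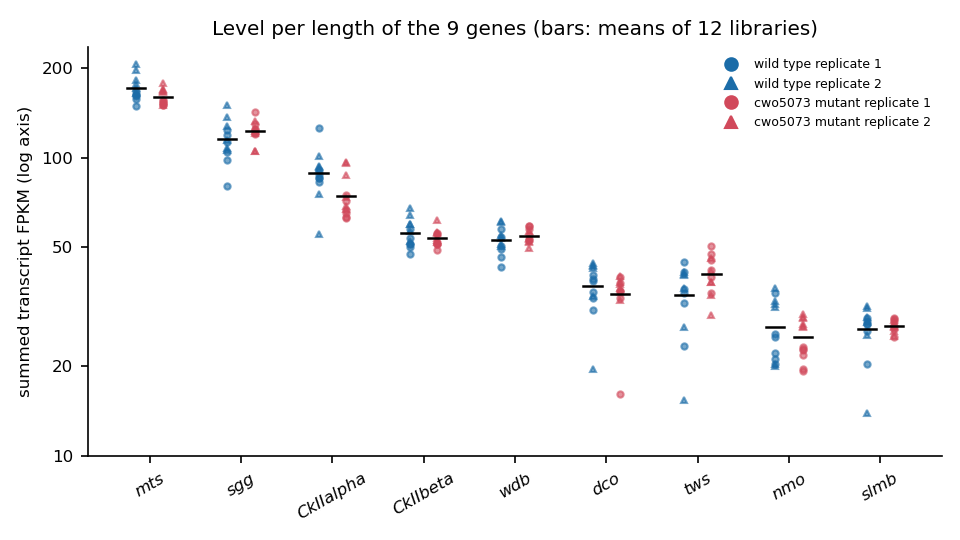
Transcript FPKM summed over the models of each gene (log axis), one point per library, circles for replicate 1 and triangles for replicate 2, with the mean of 12 libraries as a bar. Neighbouring genes overlap in wild type in 8 of 8 pairs, and mts is highest in both genotypes.

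Between genotypes the levels of these genes differed little over the day, and 1 of the 9 passed the test over all times: tws, higher in the mutant. With edgeR's quasi-likelihood test and Benjamini-Hochberg adjustment over all genes at a threshold of 0.05, 28% of the 11095 genes were called over all times, so a count of 1 in 9 is not above that background. DESeq2 called 2 of the 9 (33.1% of all genes) and limma voom with quality weights 0 (25.2%), and 2 had an unadjusted edgeR p under 0.05 against 42.8% of all genes. The median absolute log2 difference was 0.09 over the 9 genes and 0.23 over all genes tested, and the median signed difference was -0.03 against -0.01. All genes tested include ones of far lower level than the 9, and the sets were not matched for abundance. For none of the 9 did the 12 mutant libraries separate from the 12 wild-type libraries, as they did for 1.68% of all genes.

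The kinase gene with the highest level per length, sgg, ran from 414 to 757 CPM in wild type with a median of 549 CPM, and from 499 to 691 CPM in the mutant with a median of 614 CPM. The mutant range lay inside the wild-type one, and the log2 difference over all times was 0.10 ± 0.08 (SE; adjusted p = 0.344, edgeR). For dco, the kinase whose alleles set the period of the clock, wild type ran from 76.2 to 276 CPM around a median of 153 CPM and the mutant from 66.5 to 168 CPM around 151 CPM. The medians of dco were nearly equal, and the log2 difference was -0.09 ± 0.15 (adjusted p = 0.650). The NEMO kinase gene nmo spanned 106 to 300.8 CPM in wild type and 78.7 to 177 CPM in the mutant, with medians of 147 and 150.4 CPM and a log2 difference of -0.15 ± 0.15 (adjusted p = 0.477).

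Neither subunit of casein kinase 2 was called. CkIIalpha lay between 115 and 205 CPM in wild type, with a median of 139 CPM, and between 104 and 153 CPM in the mutant, with a median of 112 CPM. For CkIIalpha, 7 of the 12 mutant libraries lay below all wild-type ones and the other 5 inside their range, and the log2 difference of -0.21 ± 0.08 had an adjusted p of 0.0700 (edgeR). Means of CkIIalpha in wild type and mutant were 145 and 112 CPM in libraries numbered 1, and 136 and 130 CPM in those numbered 2. Over 39 alternatives the difference ran from -0.35 to -0.07, and it was called in 7. These include DESeq2 (adjusted p = 0.0461) and edgeR with the replicate block within genotype (adjusted p = 0.0451). Another was edgeR with upper-quartile scaling (-0.28, adjusted p = 0.0298), where the median of all genes was -0.08. In the libraries numbered 1 only it was -0.35 (adjusted p = 0.0212, edgeR), with 4098 of 10301 genes called. The other 3 left out the wild-type ZT10 replicate 2, mutant ZT18 replicate 2 or mutant ZT22 replicate 2 library and gave CkIIalpha adjusted p-values of 0.0354, 0.0305 and 0.0271. CkIIbeta, by contrast, spanned 126 to 149 CPM in the mutant, inside the wild-type range of 116 to 246 CPM, with a log2 difference of -0.03 ± 0.08 (adjusted p = 0.789).

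Of the phosphatase genes, mts ran from 320.3 to 672 CPM in wild type and from 329 to 387 CPM in the mutant, with medians of 362 and 355 CPM and a log2 difference of -0.09 ± 0.09 (adjusted p = 0.462). For wdb the medians were 354 and 394 CPM, the ranges 315 to 644 and 343 to 436 CPM, and the log2 difference 0.06 ± 0.10 (adjusted p = 0.669). The F-box gene slmb was the steadiest of the 9: its coefficient of variation over the 24 libraries was 9.64%, lower than in all but 4.42% of the 1789 genes of similar abundance, whose median was 21.6%. Its medians were 99.0 CPM in wild type and 102 CPM in the mutant, and the log2 difference was 0.08 ± 0.07 (adjusted p = 0.347). At the other end, nmo varied by 30.02%, above 74.3% of those genes.

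**Figure D2:**
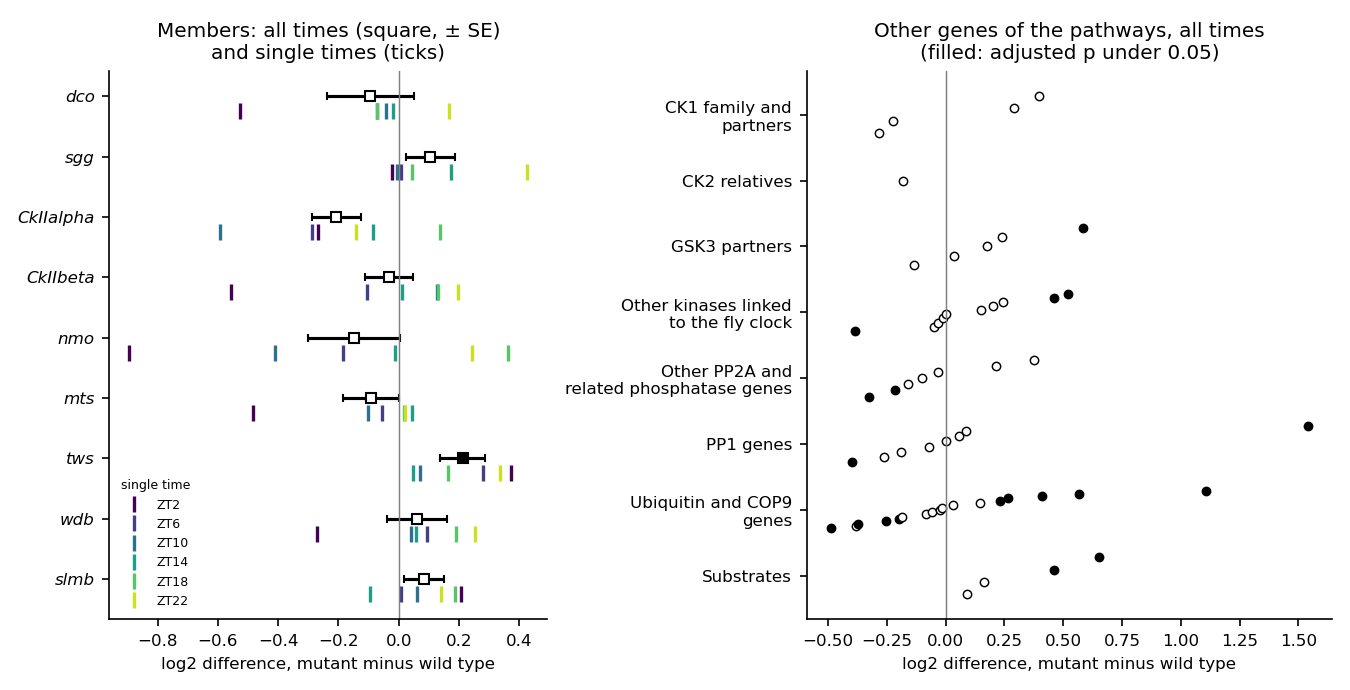
Log2 difference of mutant minus wild type from the edgeR fit. Left, the 9 genes, with a square and bars of 1 SE for all times and ticks for each ZT; tws, at 0.21 ± 0.07, is the only filled square. Right, the other genes of the pathways by list over all times, filled where the adjusted p was under 0.05 (11 higher and 8 lower).

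The PP2A subunit gene tws was higher in the mutant at 6 of 6 times, by 0.05 on the log2 scale at ZT14 up to 0.37 at ZT2. In wild type its replicates gave 128 and 89.3 CPM at ZT2, 124 and 133 CPM at ZT6, 171 and 150.2 CPM at ZT10, 148 and 148 CPM at ZT14, 112 and 128 CPM at ZT18, and 95.4 and 91.4 CPM at ZT22. In the mutant they gave 147 and 135 CPM at ZT2, 174 and 138 CPM at ZT6, 173 and 165 CPM at ZT10, 172 and 134 CPM at ZT14, 143 and 126 CPM at ZT18, and 124 and 111 CPM at ZT22. Both mutant libraries exceeded both wild-type libraries at ZT2, ZT6 and ZT22, and the genotypes overlapped at ZT10, ZT14 and ZT18. Over all times the log2 difference was 0.21 ± 0.07 (adjusted p = 0.0464, edgeR; means 127 ± 25.8 and 145 ± 21.1 CPM, SD, n = 12).

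The tws call rests on a narrow margin. It was kept in 10 of 39 alternatives and lost in 29, with adjusted p from 0.0039 to 0.696 and the same sign in each. Leaving out a single library ended it in 19 of 24 cases, all but those of wild-type ZT2 replicate 1 and of the mutant replicate 2 libraries at ZT6, ZT14, ZT18 and ZT22. Without both wild-type libraries low in long transcripts the difference was 0.18 (adjusted p = 0.0621), and with the counts corrected for gene length in each library it was 0.11 (adjusted p = 0.337). In mutant libraries of replicate number 1, high in the fat body genes, tws had a mean of 156 ± 20.6 CPM, and in those of number 2 a mean of 135 ± 17.4 CPM (SD, n = 6); the part of fat body RNA in the difference was not tested.

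**Figure D3:**
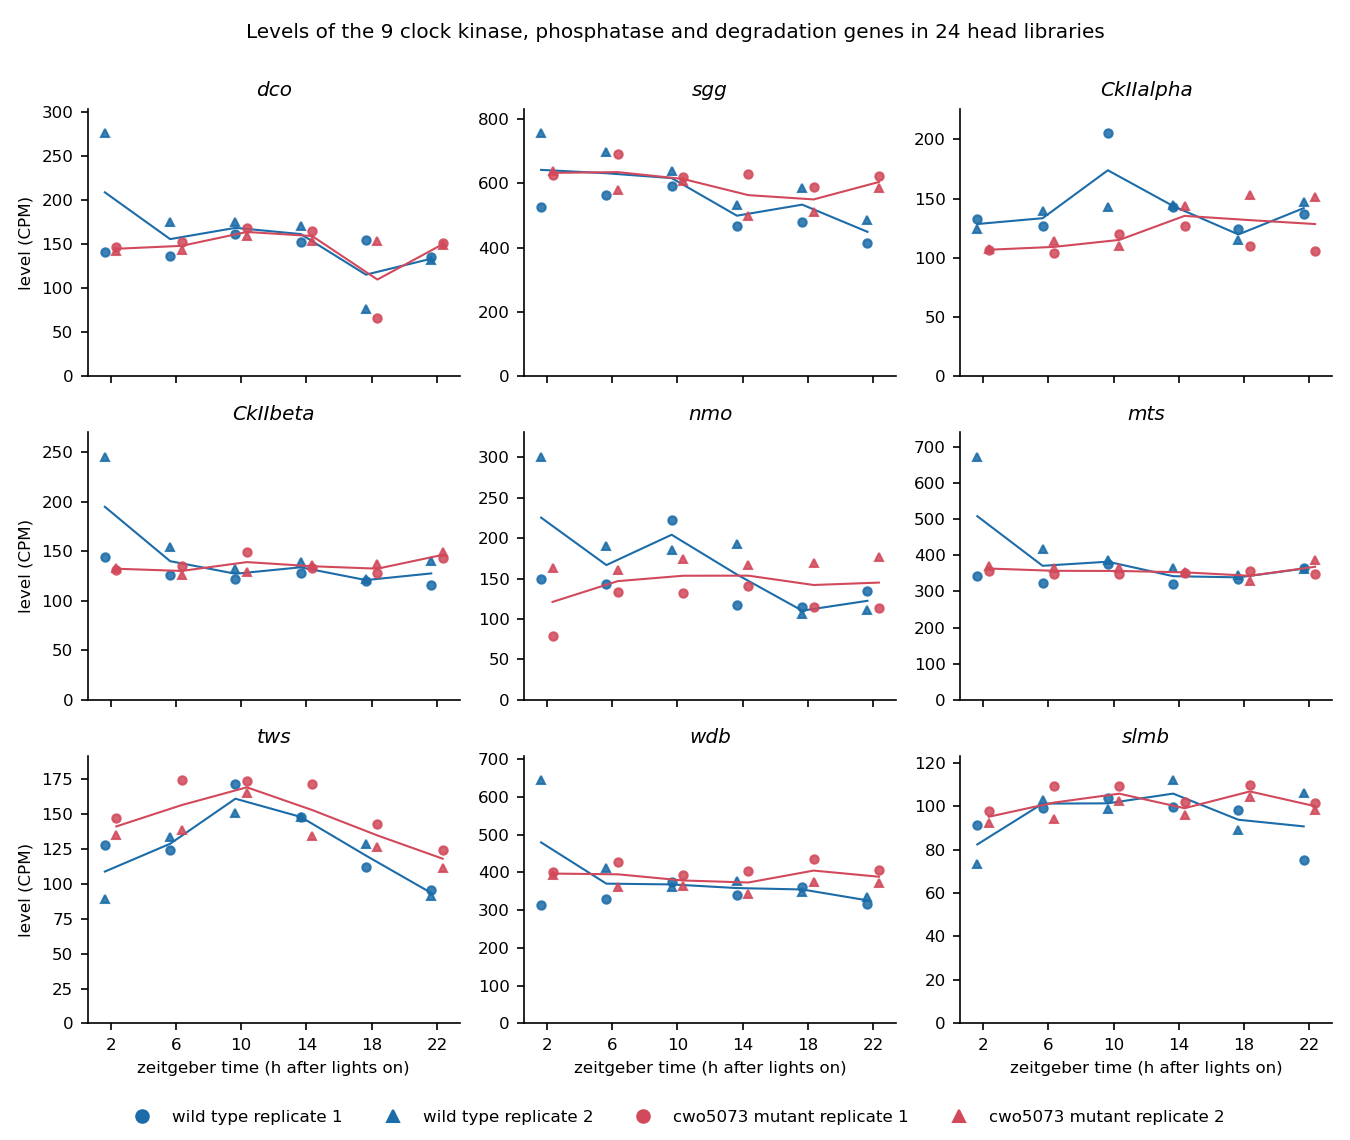
CPM of each of the 9 genes against ZT in hours, one panel per gene, with both libraries of each genotype and time as points and their means joined by lines. For 6 genes the highest wild-type point is the ZT2 replicate 2 library, and dco has 1 low point in each genotype at ZT18.

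At single times none of the 54 differences passed the edgeR test, where 14.5% of all genes were called at ZT2, 0.829% at ZT6, 1.26% at ZT10, 0.811% at ZT14, 0.757% at ZT18 and 1.16% at ZT22. An unadjusted p under 0.05 was reached by 5 values in 5 genes, DESeq2 called 1, at ZT2, where it called 25.8% of all genes, and voom 0. Of all genes, 38.5% had such a p at ZT2, 6.29% at ZT6, 12.5% at ZT10, 7.35% at ZT14, 5.8% at ZT18 and 16.8% at ZT22. The smallest adjusted p were those of CkIIbeta at ZT2 (0.0634) and nmo at ZT2 (0.0985). For CkIIbeta the ZT2 libraries stood at 144 and 246 CPM in wild type and at 131 and 134 CPM in the mutant, a log2 difference of -0.56 ± 0.20. For nmo they stood at 150.1 and 300.8 CPM against 78.7 and 164 CPM, a difference of -0.89 ± 0.38. In both genes the second wild-type library, the one that stood apart, lay far above the other 3.

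By CPM, the same library held the highest wild-type value of dco, sgg, CkIIbeta, nmo, mts and wdb and the lowest of tws and slmb. By summed FPKM, which does not use the normalization factor, this was so for all of them but sgg. Its 105.7 FPKM of sgg lay inside the wild-type range of 80.5 to 150.2 FPKM. For mts the ZT2 values were 343 and 672 CPM in wild type against 356 and 370 CPM in the mutant. Without that library the ZT2 difference of CkIIbeta was -0.14 (adjusted p = 0.699), that of nmo -0.32 (adjusted p = 0.749) and that of mts 0.06 (adjusted p = 0.880), where with it mts had -0.48 ± 0.23 (adjusted p = 0.129). Leaving out the other wild-type ZT2 library instead turned 5 members into calls at ZT2, CkIIbeta at -0.89 and mts at -0.89 among them; in that fit 49.9% of all genes were called at ZT2. Either fit leaves 1 wild-type library at ZT2, which is assumed to vary like the other groups. For wdb, 315 and 644 CPM in wild type at ZT2 compared with 400 and 394 CPM in the mutant. In each of these 4 genes the 2 wild-type replicates lay further apart than the genotype means.

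Away from ZT2, CkIIalpha at ZT10 had the smallest unadjusted p of the 54 values. Its libraries gave 205 and 143 CPM in wild type and 121 and 110 CPM in the mutant, a log2 difference of -0.59 ± 0.20 (adjusted p = 0.225, edgeR). Both mutant values were below both wild-type values, and the wild-type replicates differed from each other by more than the genotypes' nearest libraries. At ZT22, sgg gave 414 and 485 CPM in wild type and 625 and 584 CPM in the mutant, with no overlap. The difference was 0.43 ± 0.20 (adjusted p = 0.296, edgeR), and the lower wild-type value is the second library low in long transcripts. That library held 190 CPM of CR45197, a transcript annotated over part of sgg on the same strand. The other wild-type ZT22 library held 7.50 CPM of CR45197, and the mutant ones 9.48 and 0.31 CPM. Its part in the sgg difference was not tested. The genotype by time interaction was called for 0 of the 9 and for 0% of all genes by edgeR (unadjusted p under 0.05 for 0 of the 9 and 2.41% of all genes), and for 0 of the 9 by DESeq2 and voom. Without wild-type ZT2 replicate 1 it was called for CkIIbeta (adjusted p = 0.0114) and mts (adjusted p = 0.0256), and for 18.3% of all genes, with the ZT2 library that stood apart as the only wild-type one at that time.

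A pair of patterns set single libraries apart. The dco transcript was low in 1 library of each genotype at ZT18, 76.2 CPM in wild-type replicate 2 and 66.5 CPM in mutant replicate 1, where their partners had 154 and 153 CPM. All other libraries of dco lay between 131 and 276 CPM, so the 2 were lowest of 24. On the FPKM scale the same 2 libraries held 19.6 and 16.1 FPKM of dco against 30.8 to 44.4 in the rest. The main dco model of 4156 nt stood at 11.0 and 8.34 FPKM there. The gene next to dco, 169 bases away, had 74.8 and 67.3 CPM in these libraries, inside its range of 62.2 to 126 CPM over all 24. The first is the lowest of its 12 wild-type values, and this neighbour was called lower in the mutant over all times, from 90.9 to 75.4 CPM (log2 difference -0.26 ± 0.08, adjusted p = 0.0267, edgeR). The cause of the low dco values was not tested.

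The other pattern concerns nmo, which was lower in every mutant library of replicate number 1 (78.7 to 141 CPM) than in every one of number 2 (160.1 to 177 CPM). The sets of 6 did not overlap, which was so for 9.84% of all genes in the mutant and 0.0991% in wild type; nmo was the only one of the 9 with such a gap in either genotype. The corresponding means were 119 ± 22.5 and 169 ± 6.43 CPM (SD, n = 6). In the same libraries the long against short score was 0.32 to 0.58 for number 1 and -0.31 to 0.27 for number 2, and the fat body genes differed as given above; their part in the nmo gap was not tested. In the mutant ZT2 replicate 1 library the long nmo model of 6235 nt held 1.00 FPKM, against 11.9 to 30.03 FPKM in the other 23, while the 2757 and 3131 nt models held 12.5 and 9.11 FPKM, each above all other libraries. The summed nmo FPKM of that library was 22.6 and lay in the range of the others, although its count of 78.7 CPM was the lowest.

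A 24 h rhythm was called for 1 of the 9 genes in wild type, tws, where 5.62% of all genes were called. Its level peaked in late afternoon, at ZT11.1 ± 0.6 (SE), with an amplitude of 0.37 ± 0.06 on the log2 scale, a fitted peak 1.67 times the trough, and a fit that took up a share of 0.81 of the variance (adjusted p = 0.0054, edgeR cosine and sine terms together). The high libraries were those at ZT10 and ZT14, from 148 to 171 CPM, and the low ones both at ZT22 and replicate 2 at ZT2, from 89.3 to 95.4 CPM. Among these low ones are both libraries low in long transcripts, and ZT22 replicate 2 had the next lowest score, -0.46. The score after that, -0.42, was that of wild-type ZT10 replicate 1, which had the highest wild-type tws value, 171 CPM. Wild-type ZT2 replicate 1, at -0.34, had 128 CPM. What the library score contributes to the tws rhythm was not tested. The call was kept in 31 of 33 alternatives, including all 24 that left out 1 library, with adjusted p from 1.0e-05 to 0.177. It was lost in both fits that corrected counts for gene length in each library. DESeq2 and voom each called tws and no other member, and the unadjusted edgeR p was under 0.05 for 4 members and 28.7% of all genes, the others being sgg, nmo and CkIIbeta.

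In the mutant the tws course was similar in shape and not called. The amplitude was 0.23 ± 0.06, the peak at ZT9.5 ± 1.0 and the fitted peak 1.37 times the trough (adjusted p = 0.285, unadjusted p = 0.0086). In the mutant 0 of the 9 genes were called by edgeR, DESeq2 or voom, where 1.09% of all genes were called; 1 of the 9 and 6.81% of all genes had an unadjusted edgeR p under 0.05. The difference of the rhythm between genotypes was not called for tws (adjusted p = 0.689) or any other of the 9 by the 3 tools, nor for any gene (0%) by edgeR; 4.96% of all genes and 0 of the 9 had an unadjusted p under 0.05. A rhythm passing in wild type and not in the mutant is thus not shown to differ between them.

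**Figure D4:**
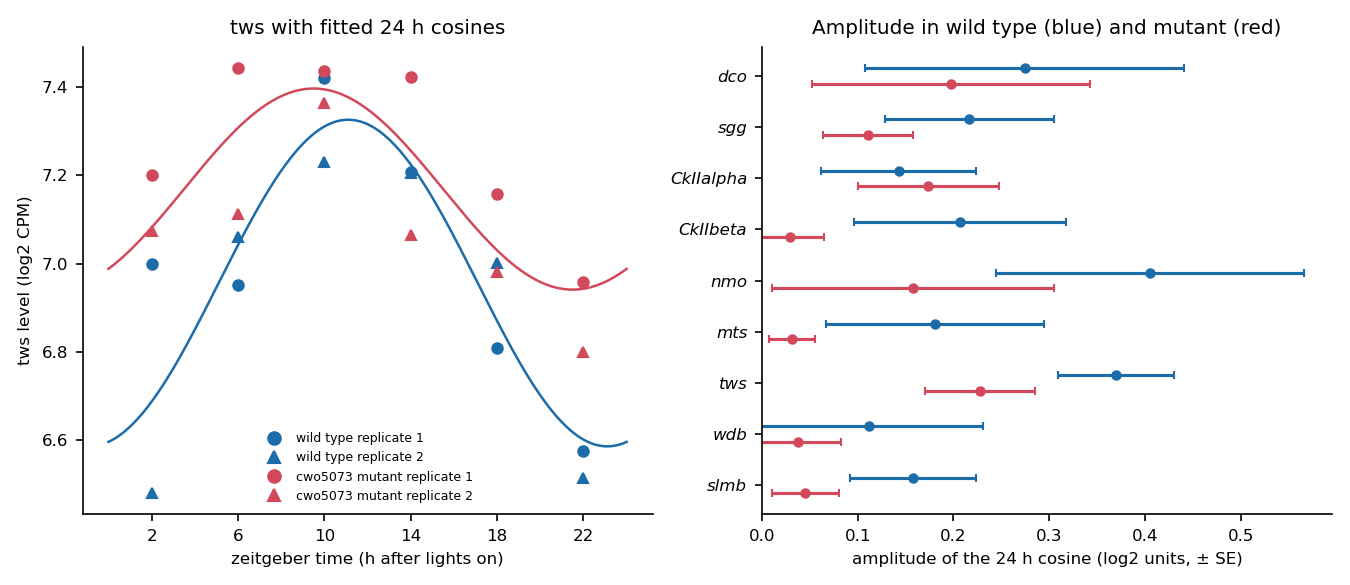
Left, log2 CPM of tws in each library against ZT in hours with the fitted 24 h cosines, peaking at ZT11.1 in wild type and ZT9.5 in the mutant. Right, the fitted amplitude of each gene (log2 units, bars of 1 SE) in wild type (blue) and mutant (red), where nmo at 0.41 ± 0.16 has a wider error than tws at 0.37 ± 0.06.

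None of the other 8 genes was called rhythmic in wild type. The fitted amplitude of nmo was the largest, 0.41 ± 0.16 with a peak at ZT6.6 ± 1.5 (adjusted p = 0.152), and its residual SD of 0.39 on the log2 scale was as large as the amplitude. The fitted peaks of sgg (ZT6.6 ± 1.6, amplitude 0.22 ± 0.09, adjusted p = 0.150) and dco (ZT6.2 ± 2.3, amplitude 0.27 ± 0.17, adjusted p = 0.381) fell in the same part of the day. CkIIbeta and mts had fitted peaks at ZT3.1 and ZT3.2, with amplitudes of 0.21 ± 0.11 and 0.18 ± 0.11 (adjusted p = 0.154 and 0.197, edgeR). Near these peaks, wild-type ZT2 replicate 2 held 246 CPM of CkIIbeta and 672 CPM of mts, and replicate 1 held 144 and 343 CPM. For nmo, sgg, dco, CkIIbeta and mts the highest wild-type point is the ZT2 replicate 2 library; without it nmo, sgg and dco had adjusted p of 0.136, 0.136 and 0.487. The amplitudes of slmb (0.16 ± 0.07), CkIIalpha (0.14 ± 0.08) and wdb (0.11 ± 0.12) were smaller, with adjusted p of 0.205, 0.344 and 0.471. In the mutant, mts, CkIIbeta, wdb and slmb had amplitudes of 0.03 to 0.05.

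Most of the genes have models of a single coding length, and the coding sequences themselves were not compared. In the Ensembl gene models, to which 65 of the 66 transcripts could be matched, the models of CkIIalpha, dco, mts, slmb and wdb each share 1 coding length, for proteins of 336, 440, 309, 510 and 524 residues. For nmo, models coding for 430 residues held 82.5 ± 7.84% of wild-type FPKM, and 79.2 ± 8.68% of that in mutants (SD, n = 12). For CkIIbeta the 235-residue form held 81.9 ± 3.30% and 79.9 ± 2.97%. The sgg gene, with 17 models, had its 597-residue form at 66.5 ± 9.19% and 59.7 ± 4.86%, and its 514-residue form at 17.8 ± 9.22% and 19.7 ± 5.09%. The tws models fell into forms of 499 residues (66.1 ± 29.5% in wild type and 61.4 ± 24.8% in the mutant) and 443 residues (33.9 ± 29.5% and 38.6 ± 24.8%).

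The wide SD of tws went with a pair of models that changed places between libraries. The 3856 nt and 3819 nt models share the distal 3′ end and the last 3 exons and differ in their first exons and coding length. In wild-type ZT14 the replicates gave 28.6 and 30.9 FPKM to the longer and 0.06 FPKM each to the shorter, and in wild-type ZT10 replicate 2 they held 2.87 and 32.8 FPKM. The 1561 nt and 1536 nt models of CkIIalpha ran from 0 to 56.8 and from 0 to 98.8 FPKM in wild type. The split of reads between models that share most of their sequence is uncertain.

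Of the 66 transcripts, 48 passed the filter on low values, and limma called 0 of these for genotype over all times, where 7.78% of all transcripts were called; the unadjusted p was under 0.05 for 8 of them and for 26.2% of all transcripts. The lowest adjusted p were 0.0694 for the 4805 nt model of sgg and 0.0770 for the 2520 nt model of tws, both higher in the mutant. Set against the other transcripts of its gene (limma diffSplice, 7.02% of transcripts called), 1 of the 48 was called: the 7086 nt model of wdb, lower in the mutant by 1.97 on the log2(FPKM + 1) scale relative to its gene's other models (adjusted p = 0.0087). It ran from 0.13 to 59.2 FPKM in wild type, with a median of 9.78, and from 0.11 to 9.01 FPKM in the mutant, with a median of 1.47. The highest values were the wild-type ZT2 replicate 2 library at 59.2 FPKM and ZT22 replicate 1 at 41.3 FPKM, and the genotypes overlapped.

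The 6842 nt model of wdb, which has the same start, end and coding length, moved the other way, from 30.01 ± 16.4 to 45.2 ± 7.52 FPKM (SD, n = 12; relative difference 1.44, adjusted p = 0.0672, diffSplice). Those same wild-type libraries held 0.52 and 0.09 FPKM of it, the lowest of the 24. Without both, the relative difference of the 7086 nt model was -1.38 (adjusted p = 0.0683), and without wild-type ZT14 replicate 2 it was -1.71 (adjusted p = 0.0702); the call was kept in the other 28 of 30 alternatives. The summed wdb count, as given above, was not called, and both models code for 524 residues.

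**Figure D5:**
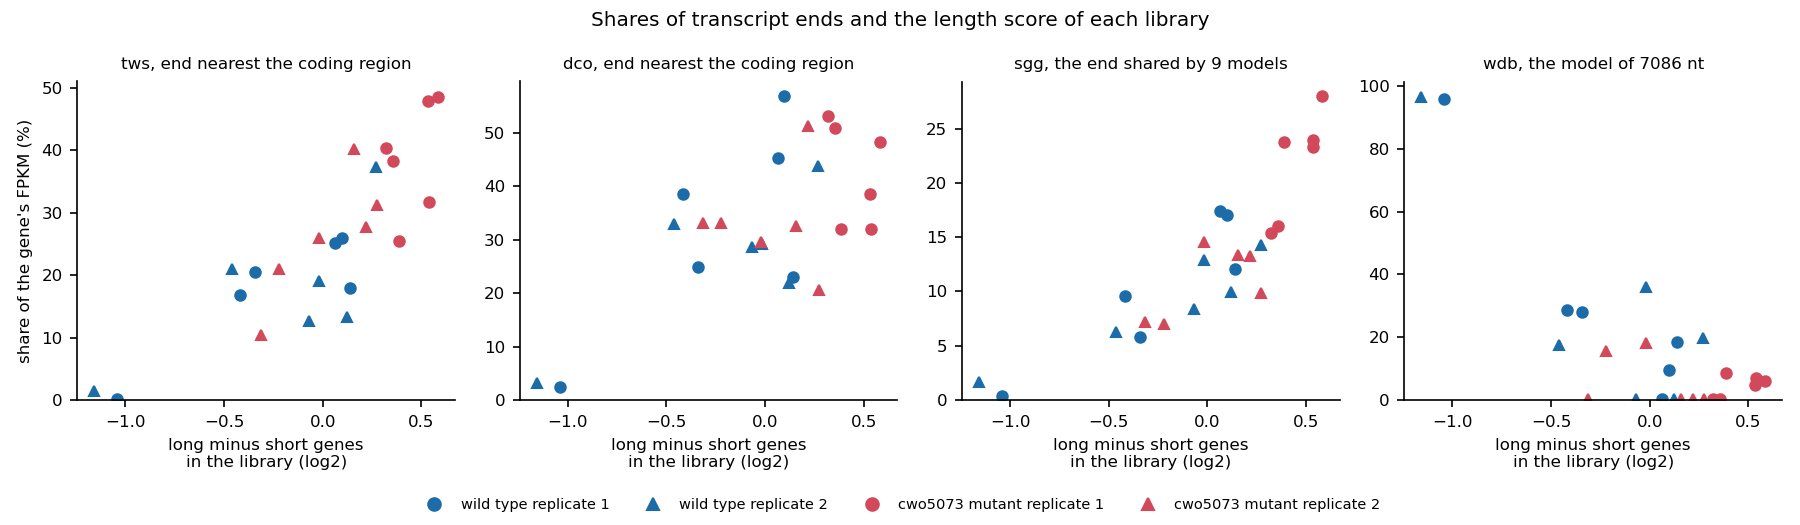
Share of a gene's FPKM (percent) in each library against the library's long minus short score (log2), for the proximal ends of tws and dco, the end shared by 9 sgg models, and the 7086 nt model of wdb. The 2 wild-type libraries at the left, with scores of -1.16 and -1.04, hold the lowest shares in the first 3 panels and the highest in the fourth.

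Summing transcripts that end within 50 nt of each other, an alternative added after the values were seen, gave 26 tested ends for the 9 genes. In wild type the most distal end carried 98.6 ± 0.918% of the slmb FPKM, 93.5 ± 5.94% of wdb, 81.9 ± 3.30% of CkIIbeta, 76.6 ± 16.0% of tws, 76.3 ± 9.59% of nmo, 70.8 ± 16.1% of dco and 66.5 ± 9.19% of sgg (SD, n = 12). For mts the middle of 3 ends carried 94.6 ± 2.57%, and the 7 CkIIalpha models share 1 end. Over all times 2 of the 26 ends were called by limma, where 18.3% of all ends were called, and both lie upstream of the main end of their gene.

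The proximal tws end at chr3R:10127644 (dm6, minus strand), shared by 4 models, rose from 6.58 ± 4.07 to 13.6 ± 5.89 FPKM (SD, n = 12; log2 difference 1.14 ± 0.36 on the log2(FPKM + 1) scale, adjusted p = 0.0410, limma). Its wild-type values ran from 0.05 to 15.1 FPKM with a median of 6.86, and its mutant values from 3.08 to 24.2 with a median of 12.4. The ranges overlapped, with 2 wild-type libraries, ZT22 replicate 1 at 0.05 FPKM and ZT2 replicate 2 at 0.21 FPKM, far below the rest; these are the libraries low in long transcripts, and the shares of this end, of the proximal dco end and of the sgg end described next were lowest in them. What the library score contributes to these differences was not tested. The distal tws end at chr3R:10126129, in contrast, stood at 25.9 ± 6.95 and 24.4 ± 3.95 FPKM. The call on the proximal end was kept in 8 of 28 alternatives and lost in 20, 18 of them from leaving out a single library, with adjusted p from 0.0048 to 0.0894; without both low libraries the difference was 0.68 (adjusted p = 0.0568). Against the other ends of tws it was 0.88 (adjusted p = 0.0564, diffSplice).

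The other call was the nearest end of CkIIbeta, at chrX:11795887 (plus strand), which carried 0 to 9.93% of the gene's FPKM and had 2.74 ± 1.53 FPKM in wild type, where the mutant had 3.48 ± 1.15 (log2 difference 0.39 ± 0.13, adjusted p = 0.0454). It was kept in 9 of 27 alternatives, and 18 of 24 that left out a library ended it (adjusted p from 0.0029 to 0.0986 over all 27). Tested against the other ends of the gene, 1 of the members' ends was called, where 16.4% of all such ends were: the group of 9 sgg models ending near chrX:2675602, at 11.3 ± 6.16 FPKM against 20.3 ± 9.31 FPKM in mutants (relative difference 0.84, adjusted p = 0.0419, diffSplice). The wild-type values of this sgg end ran from 0.31 to 18.2 FPKM and the mutant ones from 7.40 to 34.0, and its share of sgg was 9.64 ± 5.48% and 16.3 ± 6.97%. That call was kept in 10 of 28 alternatives, and 16 of 24 that left out a library ended it. A transcript annotated as CR45197 overlaps sgg on the same strand there, and its count was 993 CPM in wild-type ZT2 replicate 2 against at most 190.0 CPM in the other 23 libraries, so reads of the pair cannot be told apart in that stretch. Of 23 member starts summed in the same way, 0 were called by limma, where 13.6% of all starts were, and 4 had an unadjusted p under 0.05 (30.7% of all starts); against the other starts of the gene 0 were called by diffSplice, where 7.26% were, and 1 had such a p (21.6% of all).

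The genes lie at separate places in the genome (dm6): sgg at chrX:2633952-2679553 and CkIIbeta at chrX:11792533-11801587, mts at chr2L:7827650-7833576, nmo at chr3L:7979046-8054147 and CkIIalpha at chr3L:23097072-23103460. The other 4 are on 3R, with tws at chr3R:10126129-10139772, slmb at chr3R:21119252-21127485, wdb at chr3R:27561675-27582241 and dco at chr3R:31054085-31061210. The tws locus, the one called over all times, lies 248486 bases from cwo, on the same arm as the mutated gene. Next to slmb, 395 bases away, is Bdbt, which encodes a partner of the DCO kinase; it had 18.7 ± 4.32 CPM in wild type against 15.8 ± 2.59 CPM (SD, n = 12; log2 difference -0.23 ± 0.10, adjusted p = 0.10).

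Over the 12 means of genotype and time, the expressed genes with patterns most like those of the 9 were, by Pearson correlation of log2 CPM among 7838 genes, RpII15 for dco (0.895), Hr46 for sgg (0.915), Stlk for CkIIalpha (0.944), para for CkIIbeta (0.965), Ada2b for nmo (0.918), CkIalpha for mts (0.986), Mco1 for tws (0.942), Crtc for wdb (0.967) and CG9813 for slmb (0.926). These are descriptions without a test, each the highest of many, and all the points share the same libraries, with the wild-type ZT2 mean resting partly on the library that stood apart. Within the group the closest pair was mts and CkIIbeta (0.875), both highest in that library. For tws and slmb, both lowest in it among wild-type libraries, it was 0.730.

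The wider pathway was read from lists of 64 other kinase, phosphatase, ubiquitin and clock-substrate genes, of which 56 passed the filter. Over all times 11 were higher in the mutant, 8 were lower and 37 were not called, against 14.1% of all genes called higher and 13.9% lower; the median log2 difference was 0.00 over the lists and -0.01 over all genes. By DESeq2 the counts were 14 and 8, and with counts corrected for gene length 7 and 1. Without both libraries low in long transcripts they were 11 and 3, over ZT6 to ZT18 alone 1 and 2, and in the libraries numbered 2 alone 0 and 0 (1.93% of all genes called). Leaving out a single library gave 6 to 21 higher and 3 to 16 lower. With the correction for length the median of all genes was 0.05, and 73.1% of calls were higher in the mutant, against 50.5% without it; with upper-quartile scaling they were -0.08 and 34.4%.

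For the counts per list, the share of all genes called over all times was 28%. Among kinases, none of 4 casein kinase 1 relatives and partners passed, CkIalpha included (-0.29 ± 0.19, adjusted p = 0.259, edgeR), nor did the 1 casein kinase 2 relative tested. Of 5 partners of glycogen synthase kinase 3, Apc, a scaffold of the complex that degrades beta-catenin, rose by 0.59 ± 0.17 (adjusted p = 0.0217), from 111 to 161 CPM. Of 10 other kinases, rl (the ERK kinase) rose by 0.52 ± 0.17 and Tor by 0.46 ± 0.13 (adjusted p = 0.0322 and 0.0183), and Pka-C3 fell by 0.39 ± 0.13 (adjusted p = 0.0345). The rl and Pka-C3 calls were lost in 15 and 18 of 39 alternatives, and the Apc and Tor calls in 7 and 6.

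Of the 15 phosphatase genes tested 4 were called, where 28% of all genes were. Of 7 PP2A-related genes, Pp4-19C, the catalytic subunit of protein phosphatase 4, fell by 0.21 ± 0.05 and Tap42, which binds such catalytic subunits, by 0.33 ± 0.07 (adjusted p = 0.0115 and 0.0051). The scaffold subunit gene Pp2A-29B, which joins MTS to TWS or WDB, had 179 and 206 CPM and was not called (0.21 ± 0.12, adjusted p = 0.173). Of 8 protein phosphatase 1 genes, the regulator sds22 fell by 0.40 ± 0.09 (adjusted p = 0.0063) and Pp1-13C rose, at 0.267 and 0.484 CPM. The Pp4-19C, Tap42 and sds22 calls were kept in 34, 36 and 36 of 39 alternatives. Those 39 include 24 fits that each left out a library, and these fits ended none of the calls. Each call was lost with counts corrected for length and the replicate block added. With the correction for length alone, 1 of all the pathway genes tested was called lower.

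Of 17 ubiquitin and COP9 genes tested, 5 rose and 4 fell, where 14.1% of all genes were called higher and 13.9% lower. The largest rise was that of ctrip, the E3 ligase circadian trip, from 105 to 203 CPM (1.11 ± 0.25, adjusted p = 0.0060), kept in 37 of 39 alternatives. The E3 ligase hyd rose by 0.57 ± 0.16, the F-box gene ago, a relative of slmb, by 0.41 ± 0.14, Cul3 by 0.27 ± 0.08 and Cand1, which exchanges the F-box subunits of cullin ligases, by 0.23 ± 0.08. The core partners of SLMB split: Cul1 was not called (0.15 ± 0.08, adjusted p = 0.179), while skpA fell by 0.26 ± 0.09 (adjusted p = 0.0375) and the RING gene Roc1a by 0.37 ± 0.11 (adjusted p = 0.0251). The COP9 signalosome genes CSN8 and CSN5 fell by 0.49 ± 0.16 and 0.20 ± 0.07. The skpA, CSN5, Cand1 and ago calls were lost in 22, 28, 22 and 22 of 39 alternatives and the CSN8, Roc1a, Cul3 and hyd calls in 19, 12, 11 and 5. CSN5 turned to 0.00 with counts corrected for length.

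Of the 4 substrate genes 2 were called, where 28% of all genes were. Both tim (0.46 ± 0.10, adjusted p = 0.0052, edgeR, kept in 37 of 39 alternatives) and Clk (0.65 ± 0.11, adjusted p = 5.1e-04, kept in 38) rose, and per and cyc were not called. Means in wild type and mutant were 560 and 633 CPM for tim and 33.5 and 48.6 CPM for Clk. The differences average log2 values over times, so times of low level count as much as times of high level. In wild type 6 of the 56 list genes were called rhythmic (5.62% of all genes), namely per, tim, Clk, the deubiquitinase gene Ubpy, Pp4-19C and flw, a catalytic subunit of protein phosphatase 1, and in the mutant per, tim, Clk and Ubpy were. Set beside these, the kinase and degradation genes among the 9 had no rhythm call in either genotype, and tws was the one phosphatase subunit among them with one, in wild type.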

How the data were processed

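Poly(A) RNA from heads was sequenced as 75 nt single-end reads of a directional library, per the labels' protocols. STAR 2.6.1d, StringTie, DESeq2 and the dm6 build are named in the submitters' processing notes. The authors deposited estimated counts per gene, a gene FPKM table, and per-library transcript FPKM and coverage; the deposited counts equal the transcript coverage times length over read length, rounded up and summed, for 16722 of 16722 genes. Rows whose names had become dates (5 of 16727, at most 0.0275% of counts) were left out. The deposited gene FPKM table covers 8489 genes and serves as an alternative only.

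Groups are genotype and time. Counts were fitted with edgeR 4.0.16 (quasi-likelihood, TMM scaling, filterByExpr, 12 groups), contrasts were averaged over times or taken singly, and rhythm was fitted with 24 h cosine and sine terms. Transcript and end values were tested with limma 3.58.1 (trend, diffSplice) on log2(FPKM + 1). Adjusted p-values are Benjamini-Hochberg over all features, with a threshold of 0.05. R 4.3.3 and Python 3.11.15 were used, and the fits were tested on simulated data. DESeq2 1.42.0, voom weights, other scalings, filters and pseudocounts, the replicate block, length offsets and leaving out each library were alternatives. Their precision is limited by 2 libraries per group. The times follow the sample titles; the treatment text names only ZT2 and ZT14.

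All 9 genes are described; other genes are named where they were called in a pathway list, lie next to a member or have the most similar pattern. The members and lists were chosen with earlier results of these data known.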

Additional observations from a re-analysis of the deposited data

How the results depend on the processing

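Of 3358 values of 101 single-gene, transcript and end results under alternatives, 2974 kept their call, 300 lost it, 82 gained one and 2 reversed; the reversed ones were CSN5 with length offsets (0.0043) and with length offsets and the replicate block (0.0032). The count of 1 member called over all times was 2 with DESeq2 (3672 of 11095 genes called) and 4 with libraries numbered 1 only (4098 of 10301). It was 0 with no filter (2695 of 15119 genes), with length offsets (2130 of 11095) and with the block added to them (2422 of 11095). Voom (2792 of 11095), ZT6 to ZT18 (789 of 11095) and libraries numbered 2 only (200 of 10346) gave 0. Either gene FPKM pseudocount (2032 and 1962 of 8486) gave 0 too, as did leaving out both libraries low in long transcripts. Leaving out a single library also changed the count. At single times the count of 0 became 1 with DESeq2 and with upper-quartile scaling. It also changed on leaving out a library, as did the interaction count. The wild-type rhythm count was 0 with both length-offset fits. The 3104 genes called became 789 over ZT6 to ZT18, 2032 and 1962 in the gene FPKM table, 200 with libraries numbered 2 only and 1973 to 5592 leaving out a library. Pathway genes called higher (11) were 7 with length offsets, 1 over ZT6 to ZT18, 4 in both FPKM fits, 0 in libraries numbered 2 and 6 to 21 leaving out a library; those lower (8) were 1 with length offsets, 0 with the block added, 3 without both low libraries, 2 over ZT6 to ZT18, 0 in libraries numbered 2 and 3 to 16. Transcripts called (0) ranged from 0 to 4 and relative to their gene (1) from 0 to 5, with 2 unfiltered and 0 without both low libraries; ends called (2) ranged from 0 to 5 and relative ones (1) from 0 to 8, with pseudocount 0.1 giving 1 and 0 and a filter at 5 FPKM giving 2. Deviations of same-numbered libraries correlated above 0.1 in 15 of 15 pairs of times in the mutant (median 0.40). They did so in 6 of 15 pairs in wild type (median -0.02) and 19 of 36 between genotypes (median 0.11). In the mutant same-numbered libraries thus deviated together, and these counts do not decide whether the numbers pair samples across genotypes. With the replicate block, 1 member value was called at single times (2 with the block within genotype, 1 with length offsets). In this section the counts at single times, of transcripts and of ends stand without the share of all features called in the same fit. They are therefore not read as results about the members. With the block within genotype 2 members were called over all times, where 3824 of 11095 genes were. The replicate block also gave 1 transcript and 2 relative ends called, and tws had an adjusted p of 0.0295 (edgeR). Where a library is left out, the lone one of its genotype and time is assumed to vary like the other groups. Precision is limited by 2 libraries per group.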
